A study of Mus musculus with 6 samples.

Results

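Hras, Nras, Araf, Braf, Map2k1, Map2k2 and Mapk3, genes of the Ras, Raf, Mek and Erk kinase cascade, were compared between liver tumors and normal livers of C3H mice. The members were taken by name, as every non-control probe of the array whose gene name, or the current symbol of its accession, was 1 of these 7 genes. This gave 16 probes of the 55681 on the array, and 7 of the 18567 genes with a probe bright enough to test. The arrays were hybridised with total RNA of 3 normal livers and of 3 liver tumors from male C3H/HeN mice aged 74 to 75 weeks. All were untreated F2 animals, from the control group of a project on arsenic exposure during pregnancy, so the tumors arose without a carcinogen. The study's methods describe them as visible tumor tissue with a mutation of Ha-ras, the gene now named Hras, while the sample labels give tumor or normal only. No gene was deleted or introduced in either group, and an array reads the amount of a transcript and not its mutation. The labels do not say that the 3 samples of a group came from separate animals, so the p-values measure the spread between these samples.

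Ras proteins are small GTPases at the inner face of the cell membrane that are switched on when exchange factors load them with GTP and off when GTPase activating proteins make them hydrolyse it. Active Ras recruits Raf kinases, Raf phosphorylates the dual-specificity kinases Mek1 and Mek2, and these phosphorylate the Erk kinases, which act on cytoplasmic and nuclear targets. Signal passes along this chain by binding and phosphorylation, which a transcript level does not record. An activating Hras mutation is a frequent event in liver tumors of the C3H strain.

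The Hras probe is printed because the mutation of that gene defines the tumors, a Mapk3 probe because both Mapk3 probes passed the test, and both Map2k2 probes because 1 of them joins exons that lie apart in the genome. Each is printed 5′ to 3′ in lower case as the array design gives it, with positions on mouse build mm9 as the files have them, and all of them lie in coding sequence.
Hras probe A_51_P357664, minus strand of chr7:148377296-148377355: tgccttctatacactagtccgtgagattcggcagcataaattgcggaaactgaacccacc
Map2k2 probe A_51_P439626, plus strand of chr10:80585320-80586386: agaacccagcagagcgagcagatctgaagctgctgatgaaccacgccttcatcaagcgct
Map2k2 probe A_55_P2152292, plus strand of chr10:80582043-80582102: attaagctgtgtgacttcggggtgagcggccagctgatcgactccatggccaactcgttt
Mapk3 probe A_55_P2121662, plus strand of chr7:133908255-133908314: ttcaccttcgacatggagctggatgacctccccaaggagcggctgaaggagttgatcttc
The first Map2k2 probe is 60 bases long but spans 1067 bases of the genome, so its sequence joins stretches that splicing brings together. The other Map2k2 probe starts 3277 bases before it on the plus strand.

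Expression values below are the processed signal of a probe divided by the 75th percentile of all spots of its array, a relative unit without dimension. A level was compared only with the level of the same probe on the other arrays. The groups were compared with limma on the log2 scale, and a probe was called where its adjusted p (Benjamini-Hochberg over 24901 tested probes) was under 0.05. Only probes that the scanner software marked as well above background on every array of 1 group or of both were tested. The 75th percentile was 124 to 177 intensity units on the normal livers and 171 to 183 on the tumors, and 44.7 to 48.9% of spots were well above background. Local background was 42 to 45 on the slide of the normal livers and 22 to 23 on that of the tumors, and each tissue had a slide of its own, so that slide and tissue type cannot be told apart. Of all tested probes, 33.1% were called, 12.5% as higher and 20.6% as lower in the tumors, and the median log2 difference was -0.13.

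Defining hepatocyte transcripts were present in all samples: summed over 9 tested markers their level was 10335 to 11652 on the normal livers and 10149 to 10576 on the tumors, with 1 marker, Apoa1, called. Of 8 macrophage markers 4 were lower and 1 higher, with summed levels of 79.9 to 128 on the normal livers and 49.4 to 77.6 on the tumors. Of 8 stellate cell and fibroblast markers 4 were lower (Dcn, Lrat, Pdgfrb and Des) and 1, Col1a1, was higher. Col1a2, Col3a1 and Acta2 read higher without a call. The sums of the list, 86.4 to 103 on the normal livers and 29.1 to 48.7 on the tumors, were mostly Dcn, with means of 83.2 and 27.8. These sums therefore do not describe the other markers. Of 4 tested lymphocyte markers Cd4 was called, as higher, while Cd3d, Cd8a and Ms4a1 were among those not well above background. Of 7 endothelial markers 2 were lower, and no cholangiocyte or neutrophil marker of 4 tested in each list was called. The part of these cells in the results was not tested, and in whole tissue fewer cells of a type and less RNA per cell cannot be told apart.

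The tested probes of the 7 genes differed between tumor and normal liver by at most 0.54 on the log2 scale, or 0.80 with spike-in scaling. Mapk3, which encodes Erk1, was higher in the tumors by about 1.41-fold on both of its probes, and these were the 2 called among 13 tested probes. Of all tested probes 33.1% were called, 12.5% as higher. All probes of Hras and Nras that could be tested read higher in the tumors and all of Araf, Braf, Map2k1 and Map2k2 read lower, though 4 of the latter turned to slightly higher with spike-in scaling. None of these 11 passed the test, with adjusted p from 0.0522 to 0.734. The median size of the log2 difference was 0.29 beside 0.35 over all tested probes. The values of the 3 tumors and 3 normal livers did not overlap on 10 of the 13 probes, where the share over all tested probes was 50.8%. An unadjusted p under 0.05 was reached by 7 of the 13 in limma and by 44.9% of all tested probes.

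**Figure D1:**
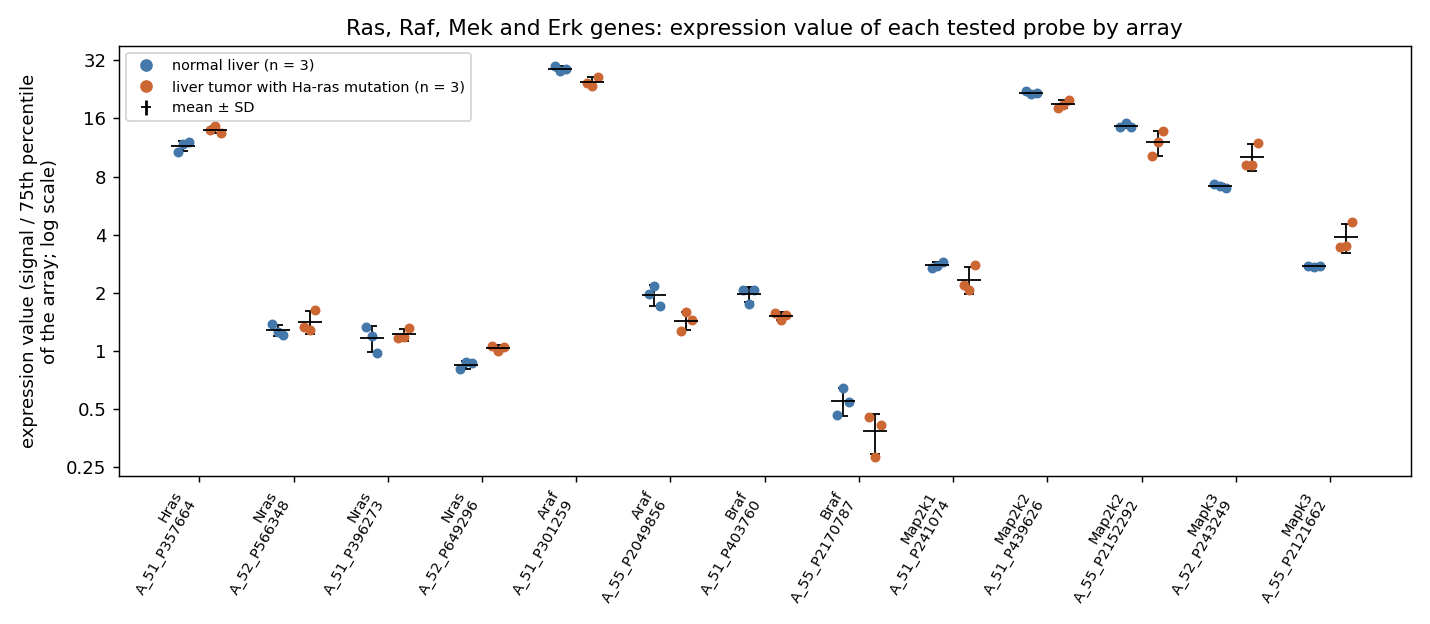
Expression value (signal over the array's 75th percentile, log scale) of the 13 tested probes of the cascade genes on each array, with 3 normal livers in blue, 3 liver tumors in orange, and bars for mean ± SD. The 2 Mapk3 probes lie higher on all 3 tumors, while the Raf and Mek probes lie lower on average (4 of them slightly higher with spike-in scaling). Heights of different probes cannot be compared.

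Hras encodes the Ras protein that is mutated in these tumors. Its probe A_51_P357664 read 10.7, 11.8 and 12.0 on the normal livers and 13.9, 14.6 and 13.4 on the tumors. The 3 tumors were all above the 3 normal livers, and the groups did not overlap. The mean was 11.5 ± 0.694 on the normal livers and 14.0 ± 0.585 on the tumors (SD, n = 3 each), a log2 difference of 0.28 (SE 0.11) or 1.21-fold with a 95% interval of 1.02 to 1.45, and limma's adjusted p was 0.0897. The threshold was missed here and passed in 3 other settings, which were quantile normalization (log2 difference 0.39, limma adjusted p = 0.0319), normexp background correction (0.38, adjusted p = 0.0411) and the unpaired test of the study's methods (0.28). Of the other 2 Hras probes, A_66_P139159 and A_55_P1979536, neither was well above background on any of the 6 arrays, so they gave no fold.

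Nras encodes a second Ras protein of the same switch, and 3 probes along 2871 bases of the genome measured it. Probe A_52_P566348 read 1.38, 1.26 and 1.21 on the normal livers and 1.34, 1.28 and 1.64 on the tumors. Probe A_51_P396273 read 1.33, 1.19 and 0.980 on the normal livers and 1.16, 1.18 and 1.32 on the tumors. On both probes the groups overlapped, and the log2 differences were 0.14 (SE 0.13, limma adjusted p = 0.463) and 0.07 (SE 0.15, adjusted p = 0.734). Their 95% intervals allowed from 0.880 to 1.38-fold and from 0.825 to 1.34-fold. Probe A_52_P649296 read 0.806, 0.874 and 0.870 on the normal livers and 1.07, 1.01 and 1.04 on the tumors, without overlap. Its log2 difference was 0.29 (SE 0.10), 1.22-fold with an interval of 1.03 to 1.45, and its adjusted p of 0.0680 in limma missed the threshold. The 3 Nras probes thus gave the same sign and differed in size. With 1 array left out, A_52_P566348 ran from 0.03 without liver tumor 3 to 0.21 without liver tumor 2, and A_51_P396273 from -0.05 without normal liver 3 to 0.17 without normal liver 1, with 0.02 without liver tumor 3.

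Araf encodes a Raf kinase, and its gene lies on the X chromosome. Probe A_51_P301259 read 30.0, 28.2 and 28.7 on the normal livers and 24.3, 23.5 and 26.2 on the tumors. All 3 tumors lay below all 3 normal livers, with a log2 difference of -0.23 (SE 0.10, limma adjusted p = 0.131) and a fold of 0.852 (95% interval 0.717 to 1.01). A probe designed on a second transcript of the gene, A_55_P2049856, 7661 bases away, read 1.96, 2.18 and 1.70 on the normal livers and 1.27, 1.59 and 1.45 on the tumors. It also separated the groups, at a log2 difference of -0.44 (SE 0.14, adjusted p = 0.0566) and a fold of 0.737 (0.580 to 0.936). The remaining probe, A_55_P2049854, which starts 170 bases from A_55_P2049856, was well above background on 2 tumors and on none of the normal livers, and was not tested.

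Braf encodes the Raf kinase with the highest activity towards Mek. Probe A_51_P403760 read 2.06, 1.76 and 2.07 on the normal livers and 1.58, 1.45 and 1.54 on the tumors. Probe A_55_P2170787, 4049 bases away, read 0.467, 0.644 and 0.547 on the normal livers and 0.457, 0.284 and 0.413 on the tumors. On both probes every tumor was below every normal liver, though on the second the highest tumor was close to the lowest normal liver. The log2 differences were -0.36 (SE 0.12, limma adjusted p = 0.0522) and -0.54 (SE 0.22, adjusted p = 0.101), or 0.777-fold (0.641 to 0.941) and 0.688-fold (0.480 to 0.986), the second being -0.33 without liver tumor 2. When the tested probes of a gene were averaged first, a setting chosen after seeing the data, both Raf genes passed the test, Araf at a log2 difference of -0.34 (adjusted p = 0.0488) and Braf at -0.45 (adjusted p = 0.0432).

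Map2k1 and Map2k2 encode Mek1 and Mek2, the kinases that activate Erk. The Map2k1 probe A_51_P241074 read 2.69, 2.77 and 2.88 on the normal livers and 2.19, 2.07 and 2.77 on the tumors. Liver tumor 3 lay within the range of the normal livers while the other tumors were below it, and the log2 difference was -0.26 (SE 0.14, limma adjusted p = 0.203), with an interval of 0.662 to 1.06-fold. The Map2k2 probe that crosses a splice junction, A_51_P439626, read 22.1, 21.5 and 21.6 on the normal livers and 18.2, 18.7 and 20.0 on the tumors. The second Map2k2 probe, A_55_P2152292, read 14.5, 15.1 and 14.4 on the normal livers and 10.2, 12.1 and 13.7 on the tumors. Neither Map2k2 probe overlapped between the groups, and both missed the threshold, at log2 differences of -0.20 (SE 0.10, adjusted p = 0.174) and -0.30 (SE 0.14, adjusted p = 0.139). Their intervals of 0.738 to 1.03-fold and 0.649 to 1.02-fold both hold no change, and without liver tumor 1 the second was at -0.19. On all 3 Mek probes liver tumor 3 was the tumor with the highest value.

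Mapk3 encodes Erk1, a kinase at the end of the cascade. Probe A_52_P243249 read 7.35, 7.11 and 6.95 on the normal livers and 9.23, 9.22 and 12.0 on the tumors. Probe A_55_P2121662, printed above, read 2.76, 2.71 and 2.75 on the normal livers and 3.47, 3.52 and 4.63 on the tumors. The normal livers lay close together on both probes, every tumor was above them, and liver tumor 3 was the highest. The mean value rose from 7.14 ± 0.202 to 10.1 ± 1.58 and from 2.74 ± 0.0238 to 3.87 ± 0.656 (SD, n = 3 each). The log2 differences were 0.50 (SE 0.14, limma adjusted p = 0.0348) and 0.49 (SE 0.14, adjusted p = 0.0414), or 1.41-fold (95% interval 1.12 to 1.77) and 1.40-fold (1.10 to 1.77). The probes start 718 bases apart in the same gene and share each RNA, so they are not independent measurements of it. Without normal liver 1, 2 or 3 or liver tumor 2 or 3 neither probe passed, at log2 differences of 0.35 to 0.56 and adjusted p up to 0.112 in limma, while both passed without liver tumor 1. In the unpaired test that the study's methods name, on linear values, neither probe passed after adjustment over all tested probes.

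The sign of 4 Raf and Mek probes depended on the scaling of the arrays. Scaled by the spike-in control spots in place of the 75th percentile, all tested probes moved up by 0.31 on the log2 scale, to a median of 0.18. The log2 ratio of the 75th percentile to the median spike-in signal was -2.42, -2.68 and -2.05 on the normal livers. On the tumors it was -2.10, -1.91 and -2.21. It varied within the normal livers by more than the 0.31 between the groups. All probes of an array share this variation, so signs, calls and lost calls with spike-in scaling are uncertain. With that scaling the Araf probe A_51_P301259 was at a log2 difference of 0.08, Map2k1 at 0.05 and the Map2k2 probes at 0.11 and 0.01, each turned from lower to slightly higher, and no probe of the 7 genes passed the test. The Mapk3 probes were at 0.80 and 0.79. With the 75th percentile the 6 Ras and Erk1 probes lay above the median of all tested probes and the 7 Raf and Mek probes below it. With quantile normalization the Map2k2 probe A_51_P439626, at -0.04, was above that median, which was then -0.06.

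**Figure D2:**
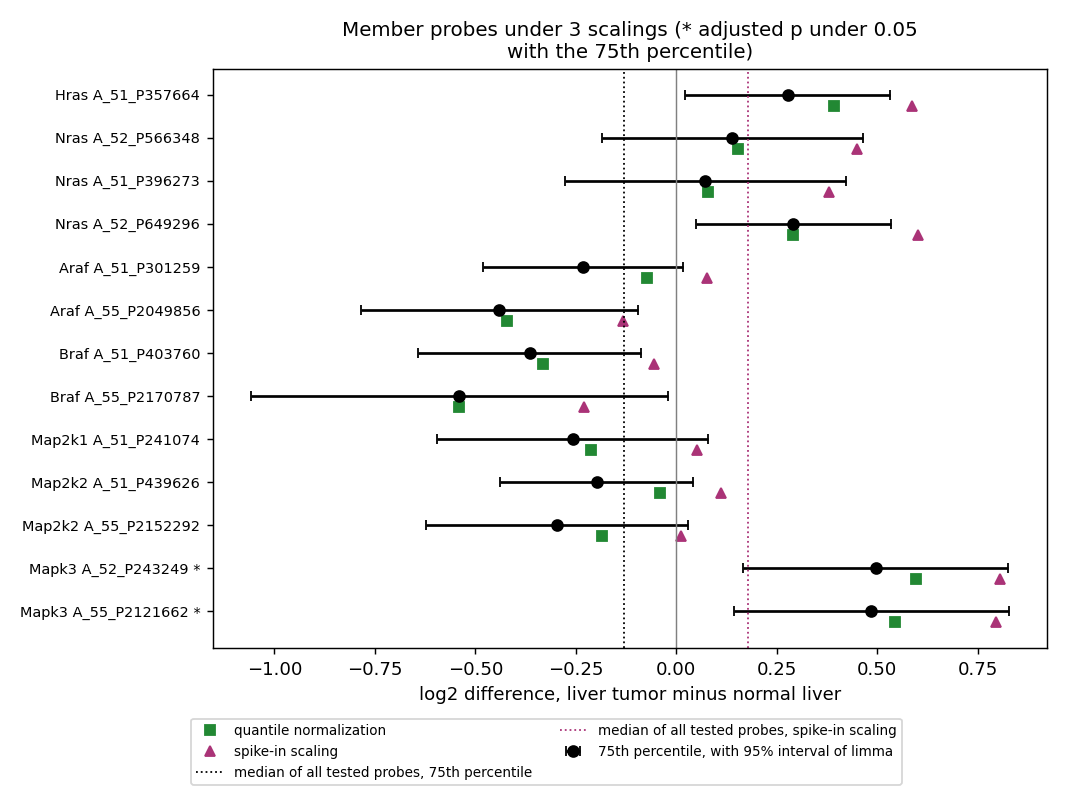
Log2 difference (liver tumor minus normal liver) of the 13 tested probes with the 75th percentile (black, with limma's 95% interval), quantile normalization (green) and spike-in scaling (purple), with dotted lines at the median of all tested probes. Spike-in scaling moves every probe to the right by 0.31, with which 4 Raf and Mek probes cross 0, while the 2 Mapk3 probes are the highest under each of the 3 scalings.

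Ratios of related genes on the same array do not depend on a factor that scales the whole array, such as the percentile or the spike-in level, and show only whether a pair changed unequally. The log2 ratio of Hras to Nras was 3.17 ± 0.183 on the normal livers and 3.31 ± 0.245 on the tumors (SD, n = 3 each), a difference of 0.14 with an exact two-sided permutation p of 0.4. That of Araf to Braf was 3.89 ± 0.105 and 4.02 ± 0.0733, a difference of 0.13 (exact permutation p = 0.2). That of Map2k1 to Map2k2 was -2.97 ± 0.0709 and -3.03 ± 0.168, a difference of -0.06 (exact permutation p = 0.6). The groups overlapped in all 3 ratios, and 3 against 3 arrays cannot give an exact p under 0.1. Over all probes of the same pairs the differences ran from -0.01 to 0.21, from -0.08 to 0.31 and from -0.06 to 0.04, all with overlapping groups. Quantile normalization, which reshapes each array, gave 0.24, 0.26 and -0.17 for the 3 pairs, with exact permutation p of 0.3, 0.1 and 0.3. With 1 array left out the Hras to Nras difference ran from 0.03 (without normal liver 1) and 0.04 (without liver tumor 2) to 0.27 (without liver tumor 3), that of Araf to Braf from 0.09 to 0.19, and that of Map2k1 to Map2k2 from -0.15 (without liver tumor 3) to 0.02 (without liver tumor 2).

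**Figure D3:**
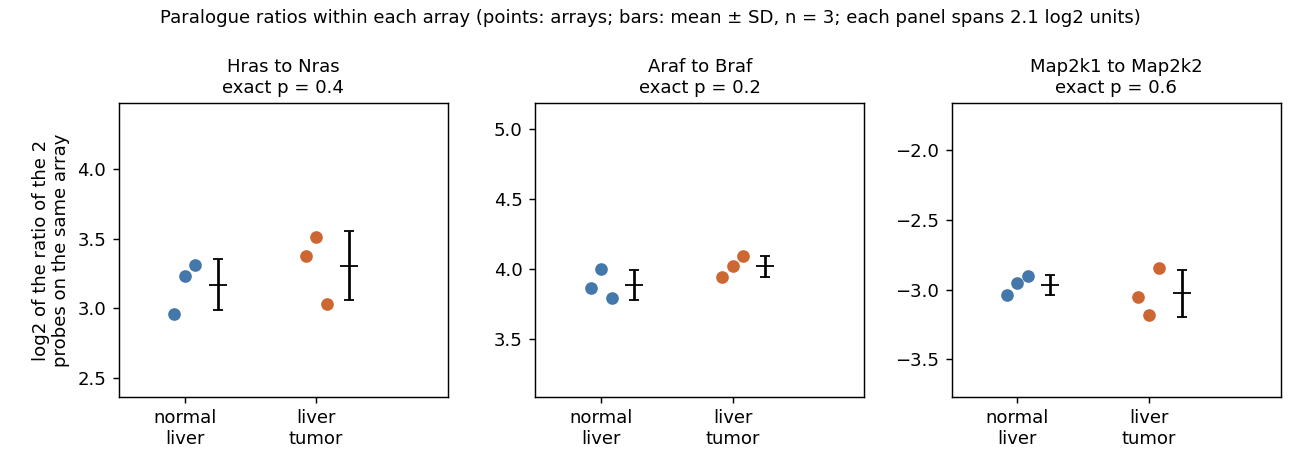
Log2 ratio of the brightest probes of 3 gene pairs on the same array, for 3 normal livers (blue) and 3 liver tumors (orange), with bars for mean ± SD. The Hras to Nras, Araf to Braf and Map2k1 to Map2k2 ratios all overlap between the groups.

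Among other core genes of the cascade, 3 relatives of Ras are described. Rras, a Ras relative that acts on cell adhesion, was 8.23 to 8.77 on the normal livers and 11.5 to 15.6 on the tumors, a log2 difference of 0.68 (SE 0.14, limma adjusted p = 0.0131). Mras, a relative that binds the Shoc2 phosphatase complex, fell on probe A_55_P2060303 from 1.16 ± 0.239 to 0.415 ± 0.115 (SD, n = 3 each), a log2 difference of -1.50 (SE 0.26, limma adjusted p = 0.0075). The Mras probes A_55_P2154322 and A_52_P203798 were not well above background on any array and were not tested. The calls of Rras and Mras were made without each array in turn. Rras2, at 0.11 (SE 0.15, adjusted p = 0.604), overlapped between the groups and did not pass. Over all tested genes 13.1% were called higher and 21% lower.

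Larger changes than those of the 7 genes were seen among genes that act on the cascade or follow it. These lists were chosen with earlier results of these data known, so their direction is no independent evidence, and their medians cover only the genes that passed the filter. Some genes passed it through a single group, such as Rasal1, Dusp4 and Dusp5 through the tumors and Sos1 through the normal livers. This tilts the counts and medians of their lists towards that group. The list counts below stand beside 13.1% of all tested genes called higher and 21% called lower. The adaptors and exchange factors that load Ras with GTP gave 2 higher and 2 lower of 15 tested, with a median log2 difference of -0.25 (0.05 with spike-in scaling). Rasgrp2, an exchange factor for Rap1 and Ras, was higher at 3.11 (SE 0.22, limma adjusted p = 0.000368), from 6.69 ± 1.72 to 56.7 ± 5.95 (SD, n = 3 each). Shc1, an adaptor of receptor tyrosine kinases, was higher at 0.39, and the exchange factor Sos2 was lower at -0.37 (adjusted p of 0.0302 and 0.0423), but both calls ended without any 1 of the 6 arrays, at 0.35 to 0.41 and -0.41 to -0.32. Sos1, another exchange factor, was called lower (adjusted p = 0.0159), but it was well above background on only 1 tumor, so that the size is uncertain: its fitted log2 difference of -1.17 was -0.37 with normexp background correction. The Sos1 call ended without normal liver 1 or 2, at -1.10 and -1.17.

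Of the genes that restrain Ras, the GTPase activating proteins, Sprouty and Spred, 6 of 10 tested were higher and none was lower, with a median log2 difference of 0.91 (1.22 with spike-in scaling). The 4 with the largest difference were called without each array in turn. Rasal1, a calcium-responsive GTPase activating protein, was not well above background on any normal liver and read at least 12.0-fold higher on the tumors, where the normal level is set to the lowest signal that counts as well above background. The bound rests on the main processing. With normexp background correction, whose offset shrinks the differences of dim probes, the Rasal1 log2 difference was 2.09. Spry1, which dampens receptor tyrosine kinase signalling, rose from 1.32 ± 0.217 to 4.63 ± 1.84 (log2 difference 1.76, SE 0.29, limma adjusted p = 0.0069). Dab2ip was higher at 1.10 (adjusted p = 0.00267) and Spred1, which brings the activating protein neurofibromin to the membrane, at 1.08 (adjusted p = 0.00298). Spry2, Spry3, Spry4, Spred3 and Rasa2 were not well above background in either group.

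The list of genes that attach and trim the lipid anchor of Ras or move it also holds Rabggta, which acts on Rab proteins. This list gave 3 lower, Rabggta among them, and 0 higher of 10 tested in limma, with a median log2 difference of -0.06 (0.25 with spike-in scaling). Lypla1, a thioesterase that removes palmitate, was lower at -0.83 (limma adjusted p = 0.0152), Rabggta, a subunit of a prenyl transferase of Rab proteins, at -0.65 (adjusted p = 0.0474) and Icmt, which methylates the prenylated end, at -0.32 (adjusted p = 0.0445). All 3 calls ended with spike-in scaling and on leaving out arrays: Lypla1 without normal liver 2 (-0.78), Rabggta without normal liver 1 or 2 or liver tumor 1 or 2 (-0.62 to -0.52), and Icmt without any 1 of the 6 (-0.33 to -0.30). Among scaffolds and modulators of Raf, Mek and Erk, 4 of 18 tested were higher and 1 lower, with a median of -0.03 (0.28 with spike-in scaling). Pea15a, which holds Erk in the cytoplasm, was higher at 1.93 (SE 0.12, adjusted p = 0.000214), Arrb1, a beta-arrestin, at 1.40 (adjusted p = 0.00215) and the scaffold Iqgap1 at 0.84 (adjusted p = 0.0216). The chaperone Hsp90aa1 was lower at -0.57 (adjusted p = 0.0313). The Iqgap1 call ended without normal liver 1 or 2 (0.85 and 0.74), and that of Hsp90aa1 held only without normal liver 2, the others giving -0.60 to -0.44.

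Downstream of Erk, 3 of 7 tested Erk phosphatases were higher and 0 lower in limma, with a median log2 difference of 0.62 (0.93 with spike-in scaling). Dusp5, a nuclear Erk phosphatase, was not well above background on any normal liver and read at least 4.14-fold higher on the tumors with the main processing. With normexp background correction the Dusp5 log2 difference was 0.99. Dusp6, its cytoplasmic relative, went from 17.4 ± 9.25 to 51.0 ± 5.96 (SD, n = 3 each; log2 difference 1.69, SE 0.37, limma adjusted p = 0.017), and Dusp7 was at 0.62 (adjusted p = 0.0251). The Dusp6 call ended without normal liver 2 or liver tumor 2 (1.67 and 1.60) and that of Dusp7 without any 1 normal liver (0.56 to 0.65). Of 12 tested Erk substrates 4 were higher and 0 lower in limma, with a median of 0.39 (0.70 with spike-in scaling): the kinase Rps6ka3 (Rsk2) at 0.99 (adjusted p = 0.00239), and the transcription factors Ets2 at 0.76 (adjusted p = 0.0263), Elk3 at 0.45 (adjusted p = 0.0421) and Ets1 at 0.43 (adjusted p = 0.0267). Of these only Rps6ka3 was called without each array in turn. Ets2 lost its call without normal liver 1 or 2 or liver tumor 3 (0.59 to 0.77), Elk3 kept it only without normal liver 2 and Ets1 only without liver tumor 3.

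Of 10 transcripts known to follow Mek activity, 4 of 7 tested were higher and 0 lower in limma, with a median log2 difference of 1.06 (1.37 with spike-in scaling). Ccnd1, the cyclin of entry into the cell cycle, rose from 1.86 ± 0.466 to 8.13 ± 1.55 (SD, n = 3 each; log2 difference 2.14, SE 0.23, limma adjusted p = 0.00173). The Ets family factors Etv4 and Etv5 were higher at 1.21 (SE 0.36, adjusted p = 0.0441) and 1.06 (SE 0.15, adjusted p = 0.00368), and Dusp6 is the fourth. Without each array in turn Ccnd1 and Etv5 were called, and Etv4 only without liver tumor 3. Dusp4 at 0.73 (adjusted p = 0.0971) and Epha2 at 0.78 (adjusted p = 0.117) did not pass. Phlda1 did not pass either, at -0.65 (adjusted p = 0.404), with normal livers that scattered at 39.6 ± 34.8. Spry2, Spry4 and Epha4 were not well above background.

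For the other arms, 3 of 17 tested Ras effectors were higher and 5 lower, with a median log2 difference of -0.28 (0.03 with spike-in scaling). Rassf5, a Ras-binding adaptor of the Hippo kinases, was lower at -1.50 (limma adjusted p = 0.00239) and Pik3r1, the regulatory subunit of PI3 kinase, at -0.86 (adjusted p = 0.00444), while Rassf1 and the Ral exchange factor Rgl1 were higher at 0.94 and 0.80 (adjusted p of 0.0396 and 0.0114). The call of Rassf1 ended without normal liver 2 or 3 or liver tumor 1 or 2 (0.69 to 1.03). Of 16 tested genes of the other MAP kinase modules, 2 were higher and 4 lower, with a median of -0.04 (0.27 with spike-in scaling). Mapk7, the gene of Erk5, was higher at 1.12 (adjusted p = 0.00371) and Map3k1 at 0.74 (adjusted p = 0.0267), while Map2k6, a kinase of p38, was lower at -1.33 (adjusted p = 0.0252) and Map3k5 at -0.55 (adjusted p = 0.0148). Calls ended without normal liver 1 or 2 for Map2k6 (-1.23 and -1.22), without any 1 normal liver for Map3k1 (0.73 to 0.75) and without normal liver 2 for Map3k5 (-0.49). With spike-in scaling Rassf5 and Map2k6 were still called lower in limma. Pik3r1 (-0.55, limma adjusted p = 0.304) and Map3k5 (-0.24, limma adjusted p = 0.743) were not.

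**Figure D4:**
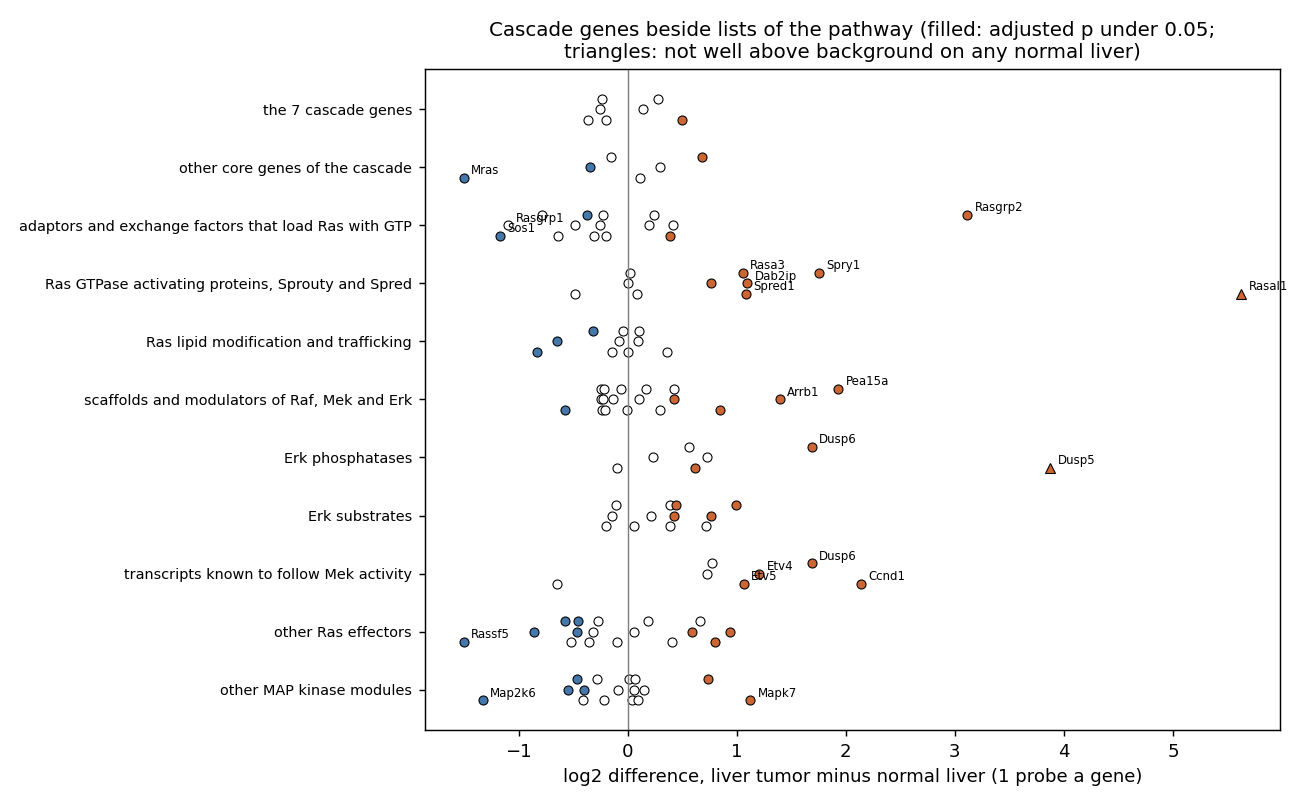
Log2 difference (liver tumor minus normal liver) of the brightest tested probe of each gene, for the 7 cascade genes and 10 lists of the pathway, filled where the adjusted p was under 0.05, with names for differences over 1 in size and triangles for genes not well above background on any normal liver. The 7 cascade genes lie within 0.54 of 0, and the called genes among the Ras-restraining proteins, Erk phosphatases, Erk substrates and transcripts that follow Mek all lie to the right.

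Over the 10 lists together, 45 of 116 tested genes were called, 28 higher and 17 lower, where 34.2% of all tested genes were called. Of these, 18 were called without each array in turn, 15 of the higher and 3 of the lower. With spike-in scaling, whose level varied within the groups, all 45 had the same sign, and 24 of the 28 higher and 3 of the 17 lower passed the test. With normexp background correction, whose offset shrinks the differences of dim probes, Mras was at -0.95, Rps6ka3 at 0.50, Etv4 at 0.67 and Map2k6 at -0.87, all still called.

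The genes whose profile over the 6 arrays was most like that of Hras were Exoc6b, a subunit of the exocyst (Pearson r = 0.994), 2510009E07Rik (r = 0.993) and the lysine methyltransferase Vcpkmt (r = 0.992), of 16481 genes well above background on all arrays. Such values are common with 6 arrays in 2 groups, and 691 genes were over 0.9. Since the likeness chose them, their difference between the groups is no further result.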

How the data were processed

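Expression was measured on 6 single-dye Agilent SurePrint G3 mouse arrays, 3 for each group. The authors deposited the scanner output of each array, whose processed signal intensity is background subtracted; the file headers name Feature Extraction 10.7.3.1 and the submitters' processing notes 12.0.3.1. They also deposited a table of the ratio of that signal to the array's 75th percentile, which equals the intensity over the percentile of all spots within 0.0051 for 93.1 to 97.4% of spots. No column of the table belonged to another sample.

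From the intensities, log2 of the signal over the 75th percentile was computed. Spots marked as outliers were left out, spots of a probe were averaged, and dim probes were filtered, leaving 24901. Tumors and normal livers were tested in R 4.3.3 with limma 3.58.1 (lmFit, eBayes, two-sided, Benjamini-Hochberg, threshold 0.05). Tables, exact permutation tests and figures used scipy 1.17.1, matplotlib 3.10.9, numpy 2.4.6 and pandas 2.3.3 in Python 3.11.15. A gene was represented by its tested probe with the highest mean log2 signal. Expression values with an SD are linear. Symbols came from RefSeq annotation of GRCm38.p6 by accession (27229 probes), symbol (3586) or synonym (565), and 24301 kept the name of the design. Probe positions are those of the design on mm9, and exon annotation of that build was not used here. The lower bound of a fold sets the dim group, on each array, to the higher of the probe's own signal and the dimmest signal that still counts as well above background. The number of arrays limits the precision.

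In simulated data with 24889 probes of this comparison, 200 of them changed, the test called 1 of 50 probes changed by 0.5 on the log2 scale, 22 of 50 changed by 1 and 45 of 50 changed by 2, with 3 false calls. In the comparison itself 33.1% of tested probes were called, so its adjustment was less strict than the simulated one. The simulated shares of calls therefore do not carry over to it. The 7 genes, the lists and the tests were chosen with earlier results of these data known. Some genes of the lists are not reported here. Named genes were all members, the other core genes, up to 4 called genes of each other list with the largest difference, all transcripts that follow Mek, and the 3 genes most like Hras. Alternatives were normexp background correction (offset 50), quantile normalization, the percentile over non-control spots, spike-in scaling, 2 other filters, the deposited table, the replicate number as a block, a variance trend, the t-test of the study's methods, the mean of probes, and each array left out.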

Additional observations from a re-analysis of the deposited data

How the results depend on the processing

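The number of cascade probes called higher, 2 with the main settings, was 0 with spike-in scaling, without the filter on dim probes and with the replicate block, 0 in the methods' t-test paired by number, 0 to 2 with 1 array left out, and 3 with normexp or quantile normalization, where Hras joined Mapk3. It was 2 in the unpaired t-test, but these were Hras and Nras A_52_P649296, and neither Mapk3 probe passed. The number called lower, 0 with the main settings (0 of 7 Raf and Mek probes), was 2 with the filter on all 6 arrays and 2 with a variance trend, the same Araf and Braf probes both times (A_55_P2049856 and A_51_P403760), and 1 in the unpaired t-test, a Map2k2 probe. The log2 differences that changed sign were those of Araf A_51_P301259 (0.0769), Map2k1 (0.0511) and the Map2k2 probes (0.11 and 0.0114) with spike-in scaling, and of Nras A_51_P396273 (-0.0487) without normal liver 3, which ranged up to 0.172 over the arrays left out. The Map2k1 to Map2k2 ratio changed from -0.06 to 0.0177 without liver tumor 2, with a range of -0.149 to 0.0177 over the arrays left out. The Araf to Braf ratio moved from 0.13 to 0.26 with quantile normalization, added after seeing the data. Among all tested probes, the 3112 higher calls were 2071 without the filter, 1739 in the unpaired and 0 in the paired t-test, and the 5127 lower calls were 1387 with spike-in scaling, 2603 without the filter, 0 in the paired t-test and 2608 to 4367 with 1 array left out. The 28 higher pathway genes were 14 without the filter, 15 in the unpaired and 0 in the paired t-test, and 16 to 23 with 1 array left out. The 17 lower ones were 11 with normexp, 9 with quantile normalization, 3 with spike-in scaling, 3 without the filter, 10 with the replicate block, 0 in the paired t-test and 5 to 11 with 1 array left out. The causes were not tested, except that leaving out an array removes a sample and dropping the filter adds probes to the adjustment. The study's methods name a paired t-test. Student's t-test gave an unadjusted p under its threshold for 8 member probes unpaired and 4 paired, where 40.4% and 29.8% of all tested probes had one. After Benjamini-Hochberg it did so for 3 and 0. Samples of the same number deviated from their group means with correlations of 0.07, 0.13 and 0.05, so the numbers were not taken to pair them. With the number as a replicate block 2805 probes were higher and 4216 lower. Mapk3 was not called, and its log2 differences of 0.50 and 0.49 did not change.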
